A study of Homo sapiens with 12 samples.

Results

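The comparison described here is the knockdown of CKAP2L in RKO, an established human colorectal cancer cell line. RKO cells with a short hairpin RNA against CKAP2L (shCKAP2L, 3 libraries) were set against RKO cells with a negative control (NC, 3 libraries), 6 of the 12 mRNA sequencing libraries of the series. The other 6 are HCT116 cells, another colorectal cancer line, with an empty vector or a CKAP2L overexpression construct (3 libraries each). The study's title names an axis of CKAP2L, STAT3, AREG and EGFR, so the question put to RKO was which mRNAs moved when CKAP2L was lowered. Groups follow the library titles. The genotype labels of shCKAP2L replicates 2 and 3 name other symbols (shCKAP3L and shCKAP4L), and CKAP2L itself was low in both libraries. No source used here gives the hairpin's sequence, the number of hairpins, how they were delivered, or whether the cells were pools or single clones, so effects of the hairpin other than on CKAP2L cannot be told apart from effects of CKAP2L.

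CKAP2L encodes cytoskeleton associated protein 2 like, a microtubule-binding protein of the mitotic spindle and spindle poles that is made in dividing cells and removed at the end of mitosis. The spindle is built from tubulin by motor kinesins, by mitotic kinases such as PLK1 and the aurora kinases, and by proteins that bundle microtubules. Its fibres attach to chromosomes at the kinetochore. The genes for these proteins are transcribed together late in the cell cycle, so in a bulk culture their mRNA levels depend both on how many cells are near mitosis and on the level per cell, and these cannot be told apart here.

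CKAP2L (ENSG00000169607, chromosome 2, 112736607 to 112764677, minus strand of GRCh38) was at 24.9, 23.99 and 25.75 TPM in the 3 NC libraries and at 7.59, 7.82 and 8.56 TPM in the 3 shCKAP2L libraries. TPM is a gene's share of a library's transcripts after division by transcript length, scaled to a fixed total, so it can be compared between genes and between libraries, but it keeps no sequencing depth. All shCKAP2L libraries lay below all NC libraries (log2 fold change -1.53 ± 0.05, adjusted p = 1.21e-12). Fold changes here and below are differences of log2(TPM + 1), shCKAP2L minus NC, each ± its standard error (also where a gene is said to have risen or fallen by such a value), and adjusted p is from limma with Benjamini-Hochberg adjustment over all tested genes. CKAP2, the closest relative of CKAP2L, was at 83.99, 80.25 and 80.66 TPM in NC and 67.73, 67.98 and 70.29 TPM with the hairpin (log2 fold change -0.25 ± 0.03, adjusted p = 2.56e-06).

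The label colorectal cancer was checked against marker genes. Of 5 general epithelial markers, EPCAM, KRT8 and KRT18 had a mean TPM of at least 1, while KRT19 and the adhesion gene CDH1 stayed under 0.1 TPM in all 6 libraries. The summed level of the 5 ran from 184 to 196 TPM in NC and from 136 to 144.5 TPM with the hairpin, within which KRT18 went from 149.5 to 92.5 TPM, KRT8 from 24.5 to 29.9 TPM and EPCAM from 15.9 to 18.1 TPM. Of 21 colon epithelial markers, 4 had a mean TPM of at least 1 (CDX2, CA2 and KLF5 among them), and 13, among them CDX1, VIL1, KRT20 and CDH17, stayed under 0.1 TPM. The sum of the 21 was 87.7 to 92.6 TPM in NC and 64.6 to 69.2 TPM with the hairpin. None of 10 fibroblast or 8 endothelial markers reached a mean of 1 TPM. The fibroblast sum ran from 0.94 to 1.22 TPM in NC and from 0.95 to 1.09 TPM with the hairpin, and the endothelial sum from 0.16 to 0.25 and from 0.60 to 0.64 TPM. Of 12 immune markers 1 reached it, the lysosomal glycoprotein CD68 (mean 1041.5 TPM in NC and 1064.55 TPM with the hairpin, adjusted p = 0.205). The leukocyte gene PTPRC stayed under 0.1 TPM. The immune sum, nearly all of it CD68, ran from 1031 to 1049 TPM in NC and from 1056 to 1070 TPM with the hairpin. It was thus above the sum of the general epithelial markers, and CD68 alone goes against the label.

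Of 20263 genes listed, 11442 averaged 1 TPM or more across the 6 libraries and were tested. With libraries this alike within a group, most genes passed: 7838 genes (68.5%) had an adjusted p under 0.05, 3019 of them higher (26.4%) and 4819 lower (42.1%) with the hairpin. The 3 values of a group did not overlap those of the other in 8175 genes (71.4%). The correlation of log2(TPM + 1) between libraries (Pearson's r, taken over genes, which are no replicates) was 0.99876 to 0.99915 within groups and 0.98618 to 0.9866 between them. Most of these changes were small. The median absolute log2 fold change of the genes that passed was 0.249, and 1881 higher and 3289 lower genes changed by less than 1.25-fold. The description below therefore rests on genes that passed and changed by at least 1.5-fold: 363 higher (3.17% of tested genes) and 293 lower (2.56%). All 656 had groups that did not overlap. A change of 2-fold or more was seen in 65 higher and 21 lower genes. The balance of the directions moved with the scaling: at 1.5-fold, 55.3% of the changed genes were higher, against 66.9% (437 higher, 216 lower) when libraries were rescaled by their median ratio and 65.1% (417 and 224) under quantile normalization. At any size, 3793 genes were higher and 4205 lower after the median ratio rescaling, and 3732 and 4220 under quantile normalization. The median log2 fold change of all tested genes was -0.05 in the main fit and -0.01 under either. Counts of genes that rose or fell below, the shares beside them, and single changes of about 0.1 or less therefore depend on the scaling. The labels do not say that replicates came from separate cultures, so the p-values measure only how far these libraries spread, and that spread may be technical.

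**Figure D1:**
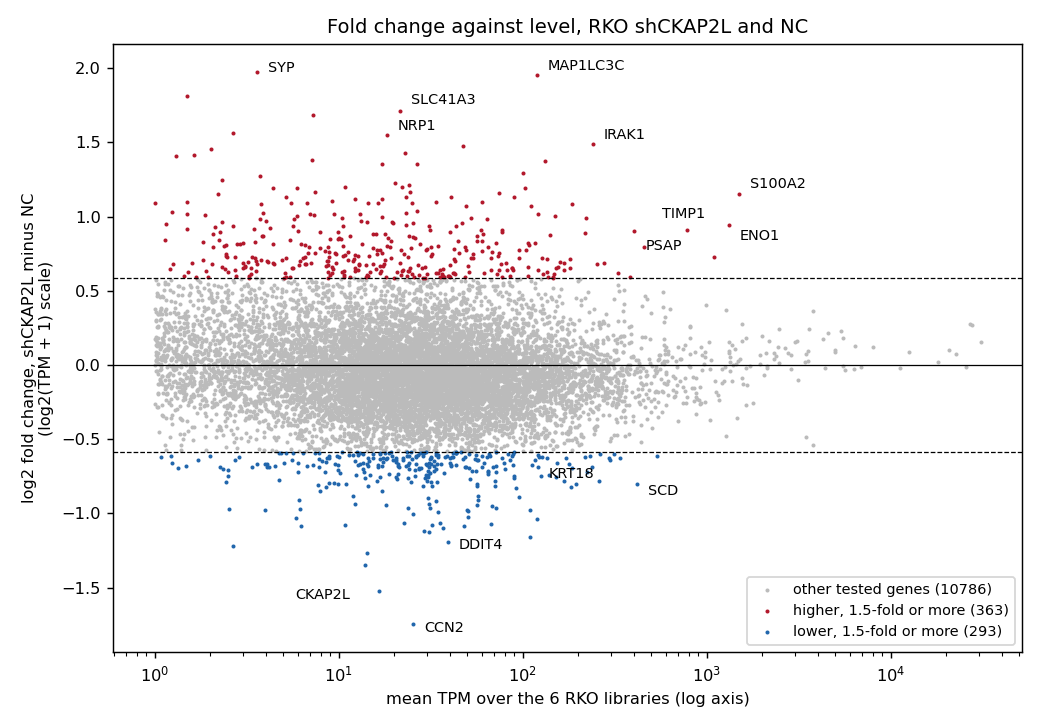
Log2 fold change (shCKAP2L minus NC, vertical axis, log2(TPM + 1) scale) of the 11442 tested genes against mean TPM over the 6 RKO libraries (horizontal log axis). Red points are the 363 genes higher and blue points the 293 genes lower by 1.5-fold or more, dashed lines mark 1.5-fold, and MAP1LC3C, SYP and CCN2 lie at the extremes. SYP was below 1 TPM in every NC library and was tested only through its level with the hairpin.

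Higher and lower genes differed in level. The median mean TPM was 16.2 for the 363 higher genes, 27.6 for the 293 lower genes and 25.8 for all tested genes. Among genes with a mean between 1 and 5 TPM, 5.48% were higher and 1.85% lower by 1.5-fold, and between 20 and 100 TPM 2.27% were higher and 2.94% lower. The standard error was larger at low levels, with a median of 0.0781 between 1 and 5 TPM and 0.0268 at 100 TPM or more. Together the higher genes gained 1.06% of all TPM and the lower genes lost 0.692%. Just inside the 1.5-fold limit lay DDB2 (-0.585) and ESAM (0.585), and just outside it LMNB1 (-0.58) and ST3GAL3 (0.58).

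The gene with the largest rise at a mean of at least 5 TPM was MAP1LC3C (ENSG00000197769, chromosome 1, 241995490 to 241999073, minus strand), a member of the LC3 family of autophagosome proteins. It was at 47.11, 49.28 and 48.47 TPM in NC and at 189.54, 186.1 and 193.96 TPM with the hairpin (log2 fold change 1.95 ± 0.03, adjusted p = 4.72e-16). The 3 hairpin libraries were close to each other and far above the NC libraries. A transporter and a lipid transfer protein followed in order of fold. SLC41A3, a magnesium transporter family member, was at 9.27, 10.35 and 9.15 TPM in NC and 33.06, 34.81 and 33.09 TPM with the hairpin (log2 fold change 1.71 ± 0.05, adjusted p = 3.76e-13). PLTP, the phospholipid transfer protein of plasma lipoproteins, was at 3.06, 3.02 and 2.6 TPM and 11.53, 12.04 and 10.99 TPM (log2 fold change 1.69 ± 0.06, adjusted p = 4.75e-12). Groups that did not overlap were a condition for the largest changes named here and below.

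NRP1, IRAK1 and KLF2 stood next. NRP1 encodes neuropilin 1, a co-receptor for semaphorins and VEGF, and was at 9.1, 8.75 and 8.48 TPM in NC and 26.47, 27.65 and 28.57 TPM with the hairpin (log2 fold change 1.55 ± 0.04, adjusted p = 4.14e-13). IRAK1, a kinase that acts downstream of Toll-like and interleukin-1 receptors, was at 126.93, 129.75 and 120.08 TPM and 350.47, 362.36 and 349.73 TPM (log2 fold change 1.49 ± 0.03, adjusted p = 1.77e-14). KLF2, a zinc finger transcription factor, was at 21.94, 27.49 and 24.63 TPM and 68.52, 69.23 and 73.25 TPM (log2 fold change 1.48 ± 0.06, adjusted p = 9.46e-12). IRAK1 was by level the most abundant of the 3 in every library. HMOX1, heme oxygenase 1, which breaks down heme, was at 72.04, 73.24 and 74.13 TPM in NC and 189.61, 190.26 and 192.79 TPM with the hairpin (log2 fold change 1.37 ± 0.03, adjusted p = 8.82e-15). The integrin alpha X gene ITGAX, known mostly from myeloid cells, was at 15.01, 14.78 and 13.89 TPM and 38.24, 38.97 and 39.32 TPM (log2 fold change 1.36 ± 0.04, adjusted p = 4.14e-13).

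A pair of histone genes was also among the largest rises, and the level of H2BC21 is uncertain for a reason given with the histone genes below. MACROH2A1, which encodes the histone variant macroH2A1, went from 57.8 ± 0.705 to 143 ± 2.17 TPM (SD, n = 3 each; 1.29 ± 0.03), and the histone H2B gene H2BC21 from 11.9 ± 0.613 to 33.7 ± 0.181 TPM (SD, n = 3 each; 1.43 ± 0.04). S100A2, a calcium-binding protein, was the most abundant of the 30 largest rises. It was at 886.95, 938.9 and 969.52 TPM in NC and 2133.3, 2197.85 and 1898.16 TPM with the hairpin (log2 fold change 1.15 ± 0.04, adjusted p = 7.91e-12), with hairpin replicate 3 the lowest of its group. The remaining genes of the 30 were KLHL35, SLC4A8 (a bicarbonate transporter), VGF (a secreted neuropeptide precursor), USP11 (a deubiquitinase), ACSL5 (an acyl-CoA synthetase), AGMAT, LYPLA2, C3AR1 (the receptor for complement C3a), RASL10B, ID3, KCNN4 (a calcium-activated potassium channel), LDHD, NUBP2, HPCAL1, BCL2L13, RNF227, DZIP3, TRBV13 and TMEM14A. Their log2 fold changes ran from 1.10 for TMEM14A to 1.38 for KLHL35. SYP, which encodes the vesicle protein synaptophysin, had the largest log2 fold change of all tested genes (1.98 ± 0.07) but a mean level below 5 TPM. It was at 0.81, 0.84 and 0.95 TPM in NC and 6.15, 6.58 and 6.31 TPM with the hairpin. SYP reached the mean of 1 TPM needed for the test only through the hairpin libraries, so its rank is a description.

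Among lower genes, CCN2 (ENSG00000118523, chromosome 6, 131948176 to 131951373, minus strand), a secreted matricellular protein also called connective tissue growth factor, fell further than the hairpin's target. It was at 43.59, 37.49 and 37.62 TPM in NC and 11.27, 10.5 and 11.38 TPM with the hairpin (log2 fold change -1.75 ± 0.05, adjusted p = 8.90e-13). NC replicate 1 was the highest library, and all hairpin libraries lay below 12 TPM. DDIT4, also called REDD1, an inhibitor of the growth kinase complex mTORC1, was at 55.3, 56.51 and 52.1 TPM and 22.53, 24.07 and 23.42 TPM (log2 fold change -1.19 ± 0.04, adjusted p = 1.31e-12). The G1 cyclin CCND2 was at 152.02, 148.33 and 151.66 TPM in NC and 65.21, 67.16 and 68.18 TPM with the hairpin (log2 fold change -1.16 ± 0.03, adjusted p = 9.16e-14). In level CCND2 lost more TPM than CCN2 or DDIT4.

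Other large falls included FSTL3, an activin-binding protein (42.5 ± 2.02 to 18.9 ± 0.527 TPM, -1.13 ± 0.04), F3, tissue factor, which starts blood coagulation (15.03 ± 0.280 to 6.60 ± 0.282 TPM, -1.08 ± 0.05), and CD83 (23.9 ± 0.249 to 11.9 ± 0.763 TPM, -0.95 ± 0.05; SD, n = 3 each). Each was picked among genes whose groups did not overlap. S100A10 fell while S100A2 rose. S100A10 is the light chain that pairs with annexin A2, and was at 160.85, 160.56 and 159.3 TPM in NC and 75.79, 78.45 and 78.4 TPM with the hairpin (log2 fold change -1.04 ± 0.03, adjusted p = 1.81e-13). Its partner gene ANXA2 was higher, at 305.22, 311.31 and 300.14 TPM and 456.89, 463.45 and 461.67 TPM (log2 fold change 0.59 ± 0.02, adjusted p = 1.14e-11). The rest of the 30 largest falls held LONRF1, SOWAHC, the transporters SLC4A7, SLC16A13 and SLC29A2, TIMM8B, GBP3, BRICD5, NHLRC3, DAZAP2, SNX4, the antiproliferative gene BTG2, and genes described with their groups below (CHAC1, STARD4, KLF4, MICA, MICB, GADD45B, XBP1, ATF3 and CENPW), with log2 fold changes from -1.26 for LONRF1 to -0.95 for CD83.

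**Figure D2:**
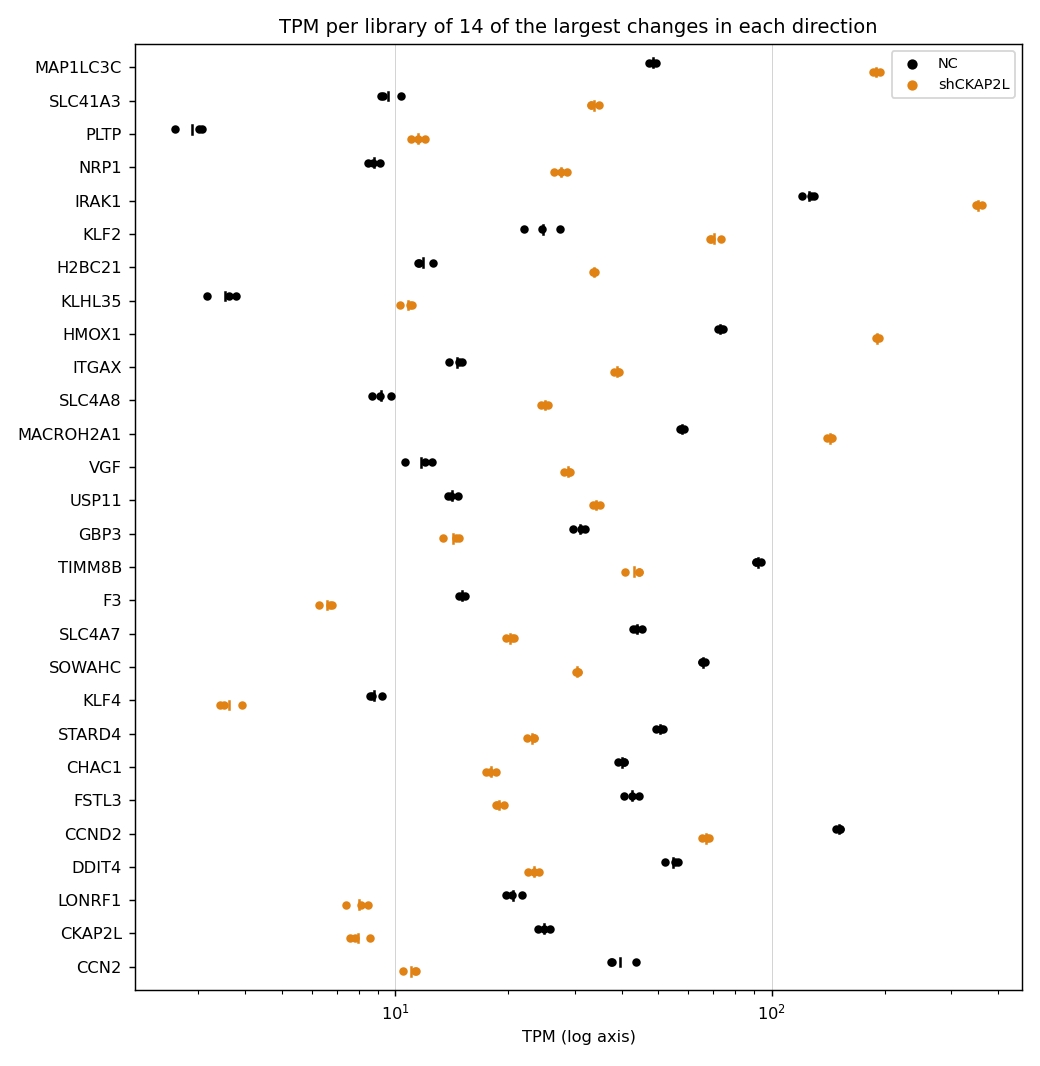
TPM in each RKO library (horizontal log axis) of 14 of the genes with the largest rises and 14 of those with the largest falls at a mean of at least 5 TPM. Black points are the 3 NC libraries, orange points the 3 shCKAP2L libraries and short lines the group means. The genes run from MAP1LC3C at 48.3 and 189.9 TPM to CCN2 at 39.6 and 11.1 TPM. The largest changes were picked among genes whose groups did not overlap.

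Genes of the mitotic spindle and of chromosome segregation were lower as groups. The lists described from here on were chosen with earlier results of these data known. Among spindle microtubule proteins, 1 rose and 17 fell of 20 tested, CKAP2L included, with a median log2 fold change of -0.316, against 26.4% higher, 42.1% lower and a median of -0.05 over all tested genes. The counts of every list below stand beside these shares, and counts at 1.5-fold beside 3.17% higher and 2.56% lower. Among mitotic kinesins, 0 rose and 13 fell of 14 (median -0.355), and KIF2A, which did not pass, was the only one above 0. Of the mitotic kinases and the passenger complex, 2 rose and 14 fell of 16 (median -0.335). In the kinetochore and centromere list 2 rose and 21 fell of 26 (median -0.33), and among mitotic cyclins and anaphase regulators 1 rose and 12 fell of 17 (median -0.35). Condensin and topoisomerase genes were closer to the rest, with 1 rose and 7 fell of 10 (median -0.168).

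Most of these falls stayed below 1.5-fold. Lower at that size were 2 of 20 spindle microtubule proteins (CKAP2L included), 2 of 14 kinesins and 3 of 16 kinase and passenger genes. So were 3 of 26 kinetochore and centromere genes, 3 of 17 cyclin and anaphase genes and 0 of 10 condensin and topoisomerase genes. The share over all tested genes was 2.56%. In the spindle and the kinase list 1 member each was higher at that size. PLK1, the kinase that drives mitotic entry and spindle assembly, was at 178.38, 175.77 and 169 TPM in NC and 103.26, 105.42 and 102.72 TPM with the hairpin (log2 fold change -0.74 ± 0.03, adjusted p = 5.81e-12). KIF20A, a kinesin of the central spindle, was at 41.67, 41.67 and 37.65 TPM and 22.24, 23.41 and 23.21 TPM (log2 fold change -0.79 ± 0.04, adjusted p = 2.91e-10). CENPW, a histone-fold protein of the inner kinetochore, fell most in these lists after CKAP2L, from 87.05, 91.39 and 93.09 TPM to 45.12, 49.47 and 44.47 TPM (log2 fold change -0.95 ± 0.04, adjusted p = 1.77e-11). Past 1.5-fold were also KNSTRN (-0.71), a spindle and kinetochore adaptor, KIF18B (-0.78), a microtubule depolymerase, NEK2 (-0.62), a centrosome kinase, CDCA8 (-0.61), which encodes the passenger protein borealin, OIP5 (-0.79) and CENPI (-0.71) of the centromere, and UBE2S (-0.72), CCNA2 (-0.59) and CCNB2 (-0.59), an anaphase ubiquitin enzyme and the A and B cyclins. AURKA (-0.34), AURKB (-0.55), CDK1 (-0.27) and TPX2 (-0.31) passed below that size.

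A few members went the other way. PRC1, which bundles the antiparallel microtubules of the central spindle, was at 49.99, 47.52 and 47.01 TPM in NC and 73.46, 75.85 and 73.94 TPM with the hairpin (log2 fold change 0.62 ± 0.03, adjusted p = 1.88e-10). PKMYT1, an inhibitory kinase of CDK1, rose from 32.8 ± 1.44 to 51.1 ± 0.969 TPM (SD, n = 3 each; 0.62 ± 0.04), and WEE1, the other such kinase, rose by 0.39 ± 0.03. NCAPD3, a condensin II subunit, rose by 0.56 ± 0.04. TUBG1, the gamma tubulin of spindle poles, fell from 188 ± 7.96 to 119 ± 1.36 TPM (SD, n = 3 each; -0.66 ± 0.03). Of 20 tubulin and microtubule genes 3 rose and 13 fell (median -0.232). The neighbours TUBB2A (-0.82) and TUBB2B (-0.69) fell together, and they are close copies whose reads the counting may have split. STMN3, a stathmin, which binds free tubulin, rose by 0.61 ± 0.04.

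The promoter of KIF20A held the CCAAT letters that are common upstream of mitotic genes. CCAAT is the core of the site bound by the factor NF-Y. The stretch below is from RefSeq (GRCh38.p14, chr5:138179003-138179069, plus strand), and runs from 109 to 43 bases before the start site. Capitals mark CCAAT or its reverse complement, and shares over all promoters follow further on.

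KIF20A: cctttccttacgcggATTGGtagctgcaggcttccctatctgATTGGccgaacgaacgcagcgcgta

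Genes of G1, S phase and DNA repair leaned the same way, beside 26.4% higher and 42.1% lower over all tested genes. Of 33 replication genes 2 rose and 25 fell (median -0.209), and GINS1, a subunit of the replicative helicase, passed 1.5-fold (66.99 to 42.9 TPM, -0.63). Of 20 recombination and Fanconi anemia genes 0 rose and 18 fell (median -0.324). Among G1 cyclins, their kinases and inhibitors 5 rose and 17 fell of 24 (median -0.299). Both sides of that control fell: the D cyclins CCND2 and CCND1 (-0.52), the kinases CDK6 (33.9 to 20.4 TPM, -0.70) and CDK2 (-0.62), and the inhibitors CDKN1B, which encodes p27 (50.3 to 31.2 TPM, -0.67), and CDKN2C (-0.56). CCNE1 (0.38), CCNE2 (0.23) and E2F1 (0.38) rose below 1.5-fold. The p53 target CDKN1A, which encodes p21, rose by 0.14 ± 0.03. Of 26 p53 targets 3 rose and 15 fell (median -0.151), with BTG2 (46.4 to 22.9 TPM, -0.99) lowest and the stress cytokine GDF15 (12.1 to 19.6 TPM, 0.65) highest.

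Histone genes split. Of 26 tested, 3 rose and 14 fell (median -0.204), and at 1.5-fold H2BC21 and MACROH2A1 rose while H3C1, H2BC13, H2AX and H1-2 fell. H2AX, the variant phosphorylated at DNA breaks, was at 405.76, 431.82 and 399.54 TPM in NC and 263.6, 262.85 and 273.44 TPM with the hairpin (log2 fold change -0.63 ± 0.03, adjusted p = 8.48e-11). Replication-dependent histone mRNAs carry no poly(A) tail and the kit is for mRNA. The levels of such genes, among them H3C1, H2BC13, H1-2 and H2BC21, are therefore uncertain. H3C1 and H2BC13 were also below 7 TPM.

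Cholesterol synthesis was the list with the lowest median of those described, apart from groups chosen after values were seen. Cells make cholesterol from acetyl-CoA through mevalonate and squalene, and the genes of the pathway are switched together by the SREBP factors when membrane sterol is low. Of 20 tested genes 1 rose and 18 fell, with a median of -0.475, and 8 fell by 1.5-fold or more against 2.56% of all tested genes. MSMO1, a sterol methyl oxidase late in the pathway, was at 126.85, 122.12 and 125.73 TPM in NC and 66.73, 67.11 and 66.84 TPM with the hairpin (log2 fold change -0.89 ± 0.03, adjusted p = 7.60e-13). ACAT2, which makes acetoacetyl-CoA at the start, was at 70.68, 74.76 and 71.16 TPM and 41.44, 41.28 and 39.06 TPM (log2 fold change -0.82 ± 0.03, adjusted p = 1.83e-11). The fall thus ran from the first steps to the last: HMGCS1 (-0.66), IDI1 (-0.71), CYP51A1 (-0.63), EBP (-0.62) and DHCR7 (-0.60) passed 1.5-fold as well. PMVK, phosphomevalonate kinase, rose (49.8 to 60.2 TPM, 0.27), and LSS, lanosterol synthase, did not pass (adjusted p = 0.374).

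Genes of sterol uptake and sensing were less uniform. Of 14 tested, 3 rose and 10 fell (median -0.261). STARD4, a cytosolic sterol carrier, was at 51.42, 49.28 and 50.83 TPM in NC and 23.4, 23.41 and 22.39 TPM with the hairpin (log2 fold change -1.10 ± 0.03, adjusted p = 1.01e-12). Both SREBP genes fell below 1.5-fold, SREBF1 (-0.36 ± 0.03) and SREBF2 (-0.45 ± 0.03). INSIG1, an SREBP target that holds the factors back in the endoplasmic reticulum, rose instead: it was at 47.41, 45.78 and 46.85 TPM in NC and 59.22, 62.97 and 60.5 TPM with the hairpin (log2 fold change 0.38 ± 0.03, adjusted p = 5.33e-08). LIPA, the lysosomal acid lipase that frees cholesterol from lipoproteins, rose from 39.8 ± 0.355 to 67.7 ± 0.867 TPM (SD, n = 3 each; 0.75 ± 0.03). Among LXR targets and lipid efflux genes 3 rose and 5 fell of 13, with PLTP as the single member past 1.5-fold.

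**Figure D3:**
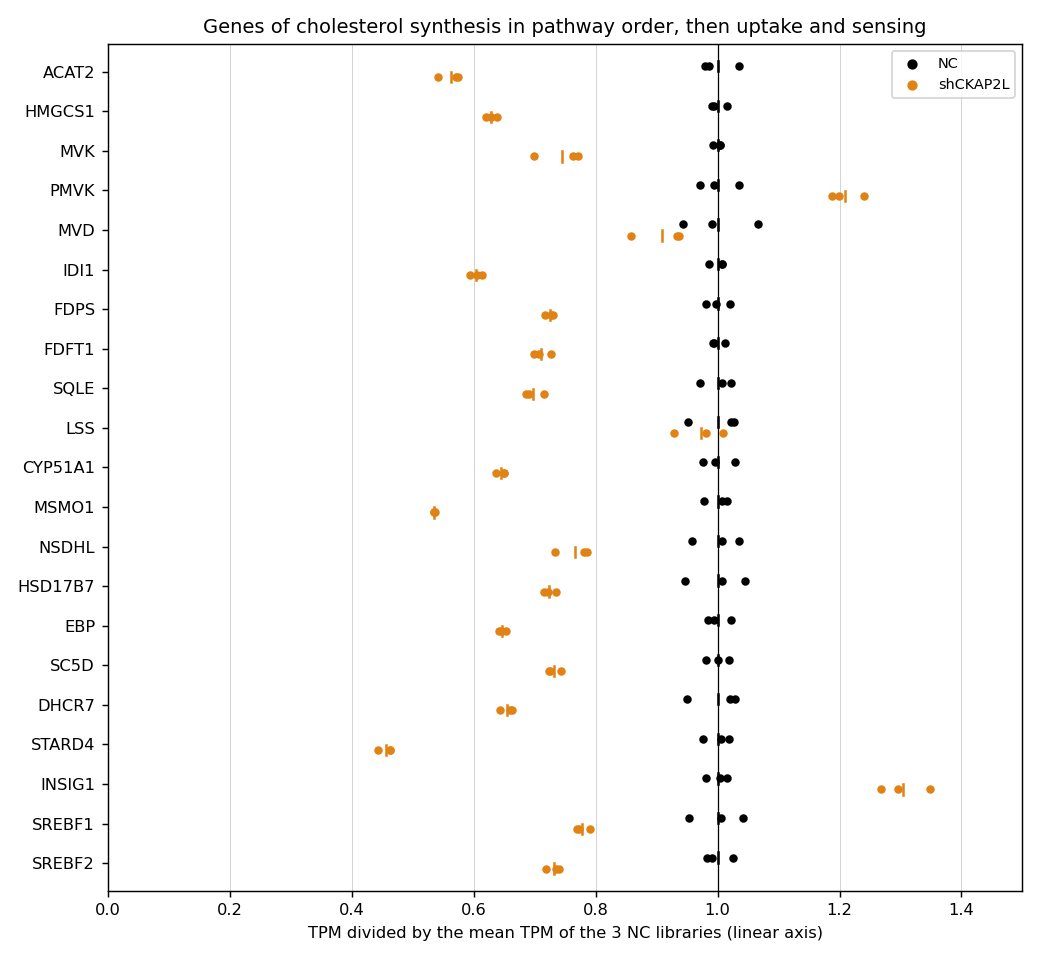
TPM divided by the mean of the 3 NC libraries (horizontal linear axis) for genes of cholesterol synthesis in pathway order, then uptake and sensing, with black points for NC, orange points for shCKAP2L and short lines for group means. Most hairpin points lie left of 1, with STARD4 the farthest, while PMVK and INSIG1 lie right of 1 and LSS overlaps.

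Upstream of MSMO1 there are 4 CCAAT matches, in capitals below on either strand (RefSeq GRCh38.p14, chr4:165327469-165327659, plus strand, 200 to 10 bases before the start site).

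MSMO1: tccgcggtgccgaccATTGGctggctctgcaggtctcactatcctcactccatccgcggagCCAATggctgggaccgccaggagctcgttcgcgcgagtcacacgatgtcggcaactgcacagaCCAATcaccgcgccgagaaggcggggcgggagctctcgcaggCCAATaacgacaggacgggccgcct

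Fatty acid genes moved in both directions. Of 21 tested, 7 rose and 10 fell in synthesis and desaturation (median -0.15). SCD, the stearoyl-CoA desaturase, was at 536.05, 535.33 and 519.28 TPM in NC and 300.5, 304.82 and 304.86 TPM with the hairpin (log2 fold change -0.80 ± 0.02, adjusted p = 5.75e-13). FASN, the fatty acid synthase, fell by 0.47 ± 0.03. The acyl-CoA synthetases split, with ACSL3 lower (72.2 to 40.9 TPM, -0.81) and ACSL5 higher (6.18 to 15.5 TPM). ELOVL1, which lengthens saturated acyl chains, rose from 119.7 ± 4.34 to 189.7 ± 4.53 TPM (SD, n = 3 each; 0.66 ± 0.03). Of 25 oxidation genes 8 rose and 6 fell. Both subunits of the mitochondrial trifunctional protein rose, HADHB by 0.78 ± 0.03 and HADHA by 0.49 ± 0.03, and PPARA, the lipid-sensing nuclear receptor, fell by 0.76 ± 0.05.

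The amino acid response driven by ATF4, a factor translated when eIF2 is phosphorylated, was lower. Of 28 tested, 2 rose and 25 fell (median -0.271), against 26.4% and 42.1% of all tested genes. CHAC1, which degrades glutathione and is a standard readout of ATF4, was at 39.15, 40.56 and 40.54 TPM in NC and 17.46, 18.56 and 17.85 TPM with the hairpin (log2 fold change -1.12 ± 0.04, adjusted p = 1.62e-12). Besides DDIT4, CEBPG (80.5 to 52.2 TPM, -0.61) and CTH, cystathionine gamma-lyase (20.4 to 13.2 TPM, -0.59), also passed 1.5-fold. ATF4 itself (-0.40), DDIT3, which encodes CHOP (-0.56), and the cystine transporter SLC7A11 (-0.43) fell below that size. The 2 exceptions that rose were SLC38A2 (0.54) and XPOT (0.38), while ASNS fell by 0.14 ± 0.03. Among aminoacyl-tRNA synthetases 6 rose and 11 fell of 20.

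CHAC1 is shown with its upstream stretch, in which capitals mark CCAAT on either strand and an ATF4 composite element, TTGCATCA, at 209 bases before the start site (RefSeq GRCh38.p14, chr15:40953246-40953415, plus strand).

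CHAC1: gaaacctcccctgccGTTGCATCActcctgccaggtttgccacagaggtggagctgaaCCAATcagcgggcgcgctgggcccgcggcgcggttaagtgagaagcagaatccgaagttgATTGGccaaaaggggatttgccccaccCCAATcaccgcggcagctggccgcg

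In the endoplasmic reticulum list, 4 rose and 21 fell of 31 (median -0.129), against 26.4% and 42.1% of all tested genes. XBP1, the transcription factor whose mRNA is spliced in the unfolded protein response, was at 147.68, 146.35 and 141.51 TPM in NC and 71.36, 71.72 and 76.84 TPM with the hairpin (log2 fold change -0.98 ± 0.03, adjusted p = 1.83e-12). Its known targets DNAJB9 (-0.56), SDF2L1 (-0.51) and DNAJB11 (-0.50) fell below 1.5-fold. HSPA5, the chaperone BiP, fell by 0.26 ± 0.02. Of 23 cytosolic heat shock chaperones 7 rose and 14 fell, none by 1.5-fold. In the NRF2, heme and glutathione list 6 rose and 16 fell of 29 (median -0.126), while HMOX1 rose: the quinone reductase NQO1 fell by 0.52 ± 0.03 and TALDO1, of the pentose phosphate pathway, went from 249 to 142 TPM. TXNRD1 (0.40) and UGDH (17.7 to 30.03 TPM, 0.73) rose. Iron genes (7 rose and 7 fell of 22) and metallothionein and zinc genes (3 rose and 7 fell of 15) had few large changes, and only the zinc exporter SLC30A1 (8.49 to 4.91 TPM, -0.68) passed 1.5-fold.

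The list that joins YAP and TEAD, the factors at the end of the Hippo pathway, with their targets was lower. Of 21 tested, 3 rose and 17 fell (median -0.352), against 26.4% and 42.1% of all tested genes. By 1.5-fold or more 5 fell, against 2.56% of all tested genes: CCN2, F3, GADD45B (34.2 to 16.6 TPM), AMOTL2 (38.3 to 22.6 TPM, -0.74) and CRIM1 (50.1 to 32.96 TPM, -0.59). CCN1, the relative of CCN2, was at 421.67, 429.16 and 411.82 TPM in NC and 297.69, 299.34 and 306.48 TPM with the hairpin (log2 fold change -0.48 ± 0.02, adjusted p = 1.81e-10). YAP1 (-0.33 ± 0.03) and LATS2 (-0.57 ± 0.04), a Hippo kinase and itself a target, fell, while TEAD1 (0.22), WWTR1 (0.11) and MYOF (0.16) rose slightly. CCN2 has 1 match of the TEAD motif ACATTCC, on the opposite strand, in capitals below (RefSeq GRCh38.p14, chr6:131951443-131951482, minus strand, 110 to 71 bases before the start site).

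CCN2: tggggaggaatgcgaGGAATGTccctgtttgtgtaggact

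Of 26 TGF-beta and BMP genes 7 rose and 12 fell (median -0.115). The inhibitors of differentiation ID3 and ID1, known BMP targets, rose. ID3 was at 15.12, 16.16 and 12.91 TPM in NC and 33.83, 35.45 and 33.09 TPM with the hairpin (log2 fold change 1.16 ± 0.06, adjusted p = 1.98e-10), and ID1 at 8.18, 8.15 and 7.19 TPM and 13.29, 14.03 and 13.89 TPM (log2 fold change 0.74 ± 0.05, adjusted p = 7.11e-09). SMAD3, the TGF-beta signal transducer (3.39 to 1.60 TPM, -0.75), and the decoy receptor BAMBI (6.41 to 3.92 TPM, -0.59) fell. In the KLF list KLF2 was the only member that rose, against 1 rose and 11 fell of 14 overall (median -0.278). KLF4, an intestinal differentiation factor, was at 9.21, 8.67 and 8.56 TPM in NC and 3.52, 3.92 and 3.43 TPM with the hairpin (log2 fold change -1.09 ± 0.06, adjusted p = 3.48e-10). Of 25 AP-1 and immediate early genes 6 rose and 14 fell, and ATF3 (8.48 to 3.85 TPM, -0.97), IER5L (26.3 to 15.02 TPM, -0.77), FOSL2 (5.09 to 2.83 TPM, -0.67) and MAFF (46.95 to 30.3 TPM, -0.61) fell past 1.5-fold, whereas EGR1 rose by 0.36 ± 0.02 and FOS did not pass (adjusted p = 0.934).

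For the axis in the title, STAT3 mRNA was at 33.51, 32.22 and 29.72 TPM in NC and 42.68, 43.69 and 40.82 TPM with the hairpin (log2 fold change 0.40 ± 0.04, adjusted p = 5.49e-07), EGFR at 12.76, 13.28 and 12.51 TPM and 10.01, 10.76 and 10.96 TPM (log2 fold change -0.26 ± 0.05, adjusted p = 0.000159), and AREG at 2.79, 2.12 and 2.94 TPM and 1.18, 0.98 and 2.01 TPM (log2 fold change -0.61 ± 0.13, adjusted p = 0.000599). STAT3 was higher, EGFR and AREG lower, and AREG was near 1 to 3 TPM throughout. Another EGF receptor ligand was more abundant and moved the other way: HBEGF was at 12.81, 13.18 and 13.34 TPM in NC and 25.45, 25.88 and 27.94 TPM with the hairpin (log2 fold change 0.96 ± 0.04, adjusted p = 3.97e-11). Over the 9 ligands and receptors tested 4 rose and 3 fell, with TGFA (0.27), BTC (0.54) and ERBB3 (0.26) also higher. Of 23 STAT3 pathway genes 8 rose and 9 fell (median -0.0823). The cytokine IL11, which signals through STAT3, rose from 13.5 ± 0.657 to 24.97 ± 0.319 TPM (SD, n = 3 each; 0.84 ± 0.04), and the STAT3 targets PIM1 (30.6 to 19.4 TPM, -0.63), PIM3 (88.95 to 53.5 TPM, -0.72), BCL3 (21.5 to 13.3 TPM, -0.65) and VEGFA (58.6 to 37.8 TPM, -0.62) fell. BCL2L1, another known target, rose as described with the apoptosis genes. Of 20 ERK output and feedback genes 8 rose and 9 fell, where KCNN4 (45.4 to 103 TPM, 1.16) and MYEOV (51.2 to 91.4 TPM, 0.82) rose and SPRY1 (5.91 to 3.57 TPM, -0.59) and ETV1 (9.64 to 6.06 TPM, -0.59) fell past 1.5-fold, and the ERK phosphatase DUSP6 rose by 0.48 ± 0.03. WNT targets (2 rose and 7 fell of 16) held none past 1.5-fold, and of 19 Notch genes (2 rose and 12 fell) HES6 (84.9 to 52.3 TPM, -0.69) was the only one.

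**Figure D4:**
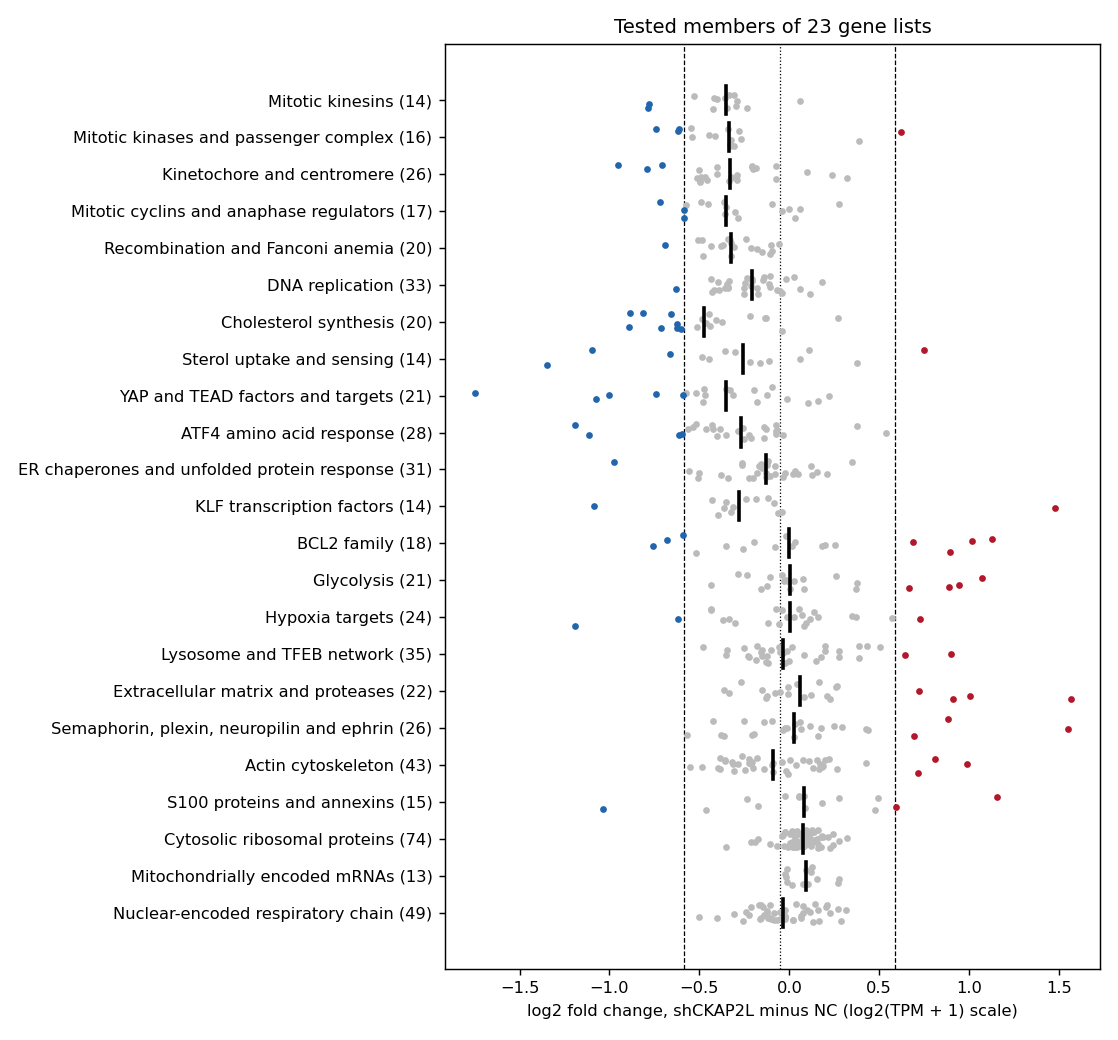
Log2 fold change (shCKAP2L minus NC, horizontal axis, log2(TPM + 1) scale) of each tested member of 23 lists, with the number of members in brackets. Red and blue points passed at 1.5-fold (dashed lines), black bars are list medians and the dotted line is the median of all tested genes. Medians of the mitotic, sterol synthesis and YAP lists lie left of the dotted line, and the BCL2, glycolysis and matrix lists hold red points past 1.5-fold with medians near 0.

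In the extracellular matrix and protease list 9 rose and 7 fell of 22, with 4 higher and 0 lower at 1.5-fold. Over all tested genes 3.17% were higher and 2.56% lower at that size. PLAU, the urokinase that activates plasminogen, was at 98.56, 101.33 and 96.14 TPM in NC and 194.74, 201.63 and 201.06 TPM with the hairpin (log2 fold change 1.01 ± 0.03, adjusted p = 3.76e-13), while its receptor gene PLAUR fell by 0.08 ± 0.03. TIMP1, a secreted inhibitor of metalloproteases, was at 534.32, 557.15 and 538.35 TPM and 1016.7, 1042.4 and 1000.02 TPM (log2 fold change 0.91 ± 0.02, adjusted p = 3.76e-13). MMP1, a collagenase, was at 0.92, 0.79 and 0.8 TPM and 4.91, 4.83 and 3.64 TPM (1.56 ± 0.09), with hairpin replicate 3 the lowest of its group. MMP1 reached the mean of 1 TPM needed for the test only through the hairpin libraries, so its value is a description. Tenascin C, TNC, rose from a low level (2.40 to 4.60 TPM, 0.72). Laminins fell slightly where they passed, such as LAMC1 (-0.36), apart from LAMB3 (0.26).

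Integrin genes changed by subunit. Of 17 tested, 7 rose and 6 fell, and ITGA2, the collagen-binding alpha 2 subunit, was at 15.98, 16.08 and 14.58 TPM in NC and 33.27, 35 and 34.62 TPM with the hairpin (log2 fold change 1.09 ± 0.04, adjusted p = 8.71e-12). ITGA6, the laminin-binding alpha 6 subunit, fell from 25.1 ± 0.327 to 15.6 ± 0.521 TPM (SD, n = 3 each; -0.66 ± 0.04). The shared beta subunit gene ITGB1 fell by 0.10 ± 0.02. PXN, the focal adhesion adaptor paxillin, rose from 194 ± 5.72 to 312 ± 3.21 TPM (SD, n = 3 each; 0.68 ± 0.03). In the guidance receptor list 9 rose and 9 fell of 26, and beside NRP1 its ligand SEMA3A (10.9 to 20.9 TPM, 0.88) and the ephrin EFNB2 (121 to 197 TPM, 0.70) rose past 1.5-fold. NRP2 did not pass (adjusted p = 0.746), and of the 5 VEGF family genes tested VEGFA and VEGFB (-0.30) fell and ANGPTL4 (0.57) rose.

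Junction and cytoskeleton genes did not move as groups. Of 18 junction genes 6 rose and 6 fell, where occludin, OCLN (10.98 to 6.75 TPM, -0.63), fell and CLDN3 (2.11 to 3.91 TPM, 0.65) rose past 1.5-fold. KRT18 fell from 149.5 ± 5.97 to 92.5 ± 3.28 TPM (SD, n = 3 each; -0.69 ± 0.03) while its partner keratin KRT8 rose by 0.28 ± 0.04. Of 12 mesenchymal transition genes 5 rose and 4 fell, none by 1.5-fold, among them VIM (0.36) and ZEB1 (0.44) higher and CD44 (-0.35) lower. In the actin list 15 rose and 22 fell of 43 (median -0.0896). CAPZA1, a subunit of the protein that caps actin filament ends, was at 148.63, 146.76 and 144.37 TPM in NC and 290.12, 287.99 and 297.97 TPM with the hairpin (log2 fold change 0.99 ± 0.02, adjusted p = 1.81e-13), and the crosslinker ACTN4 (103 to 169 TPM, 0.71) rose too. ACTB, which encodes beta actin, fell by 0.49 ± 0.02. Of 15 S100 and annexin genes 8 rose and 4 fell.

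Both S100A2 and the stromelysin gene MMP10 carry an AP-1 motif (TGANTCA, N for any base; in capitals) close to their start sites. They are shown because this motif was more frequent among higher genes than among all tested genes (RefSeq GRCh38.p14; S100A2, chr1:153565872-153565911, minus strand; MMP10, chr11:102780671-102780710, minus strand).

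S100A2: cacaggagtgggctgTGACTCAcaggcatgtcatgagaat

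MMP10: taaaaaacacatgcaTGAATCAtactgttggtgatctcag

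In the BCL2 family, the proteins that set the threshold of mitochondrial cell death, 4 of 18 tested members rose and 3 fell past 1.5-fold, and both kinds held protectors and killers. The shares over all tested genes were 3.17% and 2.56%. BCL2L1, which encodes the protector BCL-XL, was at 147.87, 156.05 and 151.82 TPM in NC and 279.98, 286.82 and 281.05 TPM with the hairpin (log2 fold change 0.89 ± 0.03, adjusted p = 6.36e-13). BAK1, a pore-forming killer, was at 82.04, 80.52 and 76.07 TPM and 160.07, 161.6 and 164.01 TPM (log2 fold change 1.02 ± 0.03, adjusted p = 6.87e-13). The protector BCL2A1 (128 to 207 TPM, 0.69) and BCL2L13 (14.2 to 32.2 TPM, 1.13) rose as well. PMAIP1, the killer NOXA, fell (26.1 to 15.1 TPM, -0.76), as did BCL2L12 (88.7 to 54.9 TPM, -0.68) and the protector BCL2L2 (41.00 to 26.9 TPM, -0.59). MCL1 (adjusted p = 0.598) and BAX (adjusted p = 0.0575) did not pass. Over the whole family 7 rose and 7 fell.

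The rise of MAP1LC3C was not shared by its family. MAP1LC3B, the LC3 form most often used to follow autophagy, was at 164.86, 166.73 and 163.46 TPM in NC and 106.02, 105.26 and 108.24 TPM with the hairpin (log2 fold change -0.63 ± 0.03, adjusted p = 1.37e-11), and its near copy MAP1LC3B2 fell by 0.49 ± 0.10, a value that shared reads could affect. GABARAP rose by 0.17 ± 0.04 and GABARAPL1 fell by 0.11 ± 0.04. Over autophagy genes 10 rose and 16 fell of 35. Among lysosome genes 12 rose and 14 fell of 35. PSAP, the precursor of the saposins that help to degrade sphingolipids, was at 280.7, 293.35 and 271.69 TPM in NC and 530.34, 533.98 and 515.48 TPM with the hairpin (log2 fold change 0.90 ± 0.03, adjusted p = 1.23e-12), and the peptidase TPP1 rose from 94.2 to 148 TPM. TFEB (-0.23) and TFE3 (-0.15), the factors that drive lysosome genes, fell slightly. Of 31 mTORC1 regulators 11 rose and 12 fell, and besides DDIT4 the translation repressor EIF4EBP2 (40.9 to 25.2 TPM, -0.68) and LAMTOR5 (104 to 66.5 TPM, -0.64) fell past 1.5-fold.

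In glycolysis a few steps rose without the rest. Of 21 tested, 9 rose and 6 fell, with 4 higher and 0 lower at 1.5-fold, against 3.17% and 2.56% of all tested genes. ENO1, the main enolase, was at 893.64, 934.64 and 889.93 TPM in NC and 1740.47, 1747.2 and 1735.66 TPM with the hairpin (log2 fold change 0.94 ± 0.02, adjusted p = 2.03e-13), and ENO2, the neuronal form, rose from 82.5 to 131 TPM. HK1, hexokinase 1, was at 72.55, 73.89 and 67.48 TPM and 148.93, 153.33 and 150.52 TPM (log2 fold change 1.07 ± 0.03, adjusted p = 9.19e-13), and SLC16A3, a lactate exporter, rose from 42.5 to 79.3 TPM. GAPDH was at 0.07, PGAM1 at -0.28 and LDHA at -0.24 in log2 fold change, and PKM did not pass (adjusted p = 0.87). Of 24 hypoxia targets 7 rose and 8 fell, with 1 higher and 2 lower at 1.5-fold, the lowest at -1.19. STC1, a secreted glycoprotein, was at 837.45, 822.68 and 823.56 TPM in NC and 1370.38, 1370.08 and 1374.1 TPM with the hairpin (log2 fold change 0.73 ± 0.02, adjusted p = 6.37e-13), while HIF1A fell by 0.43 ± 0.03 and CA9 did not pass (adjusted p = 0.816). Magnesium and potassium transport genes (8 rose and 8 fell of 18) held SLC41A3 and KCNN4 as the 2 members past 1.5-fold.

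Genes of translation and respiration changed by small amounts. Among all tested genes, for the counts that follow, 26.4% rose and 42.1% fell. Of 74 cytosolic ribosomal protein genes 41 rose and 6 fell, none by 1.5-fold (median 0.076), and their share of all TPM was 11.8% to 12.1% in NC and 12.4% to 13% with the hairpin. Mitochondrially encoded mRNAs held 20.4% to 22.5% of TPM in NC and 22.4% to 23.7% with the hairpin, and 7 rose and 0 fell of 13 (median 0.0902). Their median was 0 under quantile normalization. That method gives equal ranks equal values in every library, so it cannot show a change in mRNAs that keep the top ranks. The part of the mitochondrial share in other genes' changes was measured by leaving these mRNAs out before scaling, which gave 456 higher and 251 lower genes at 1.5-fold. Nuclear-encoded respiratory chain genes (13 rose and 22 fell of 49) held no change past 1.5-fold. Mitochondrial ribosomal protein genes (5 rose and 22 fell of 36) leaned lower with MRPS6 (83.8 to 149 TPM, 0.82) as an exception. SLC5A3, also higher by 1.5-fold, lies within the span of MRPS6, so shared reads could affect the value of MRPS6. Among initiation factors 6 rose and 17 fell of 36, and EIF3H stood alone. This subunit of the scaffold complex eIF3 was at 118.91, 118.75 and 117.46 TPM in NC and 250.28, 253.65 and 254.19 TPM with the hairpin (log2 fold change 1.09 ± 0.02, adjusted p = 3.89e-14), while the tested partners EIF3A, EIF3B and EIF3E were within -0.09 and 0.04. Of 33 MYC and ribosome biogenesis genes 10 rose and 14 fell, with MXD4 (16.2 to 26.6 TPM, 0.69), a MYC antagonist, higher and BYSL (63.1 to 38.7 TPM, -0.69) lower. Of 36 proteasome genes 2 rose and 18 fell, none by 1.5-fold.

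Inflammatory and antigen presentation genes were mixed. Apart from IRAK1, the interleukin-1 and Toll list moved little (7 rose and 7 fell of 20): MYD88, the adaptor upstream of IRAK1, fell by 0.21 ± 0.04 and IRAK4 rose by 0.23 ± 0.04. In the list of NF-kB genes, chemokines and cytokines 8 rose and 6 fell of 21, with the neutrophil chemokine CXCL8 at 1.79, 1.36 and 1.35 TPM in NC and 3.39, 3.31 and 3.41 TPM with the hairpin (log2 fold change 0.81 ± 0.08, adjusted p = 2.58e-07). In the interferon list 10 rose and 10 fell of 26, and HERC6 (11.6 to 20.5 TPM, 0.78) and IFIT3 (2.21 to 4.17 TPM, 0.69) rose past 1.5-fold. IFIT3 lies within the span of the more abundant LIPA, on the opposite strand. LIPA also rose, and without the strand setting its reads could add to the value of IFIT3. HLA-B (115 to 156 TPM, 0.43) and HLA-C (0.26) rose below 1.5-fold and the peptide transporter TAP1 (88.7 to 65.7 TPM, -0.43) fell, in a list where 9 rose and 10 fell of 21. The HLA genes are close copies, so their single values are uncertain.

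A few genes were expressed in 1 group only, by the rule of a mean under 0.5 TPM in 1 group and at least 2 TPM in the other. All 4 were on with the hairpin. They reached the mean of 1 TPM needed for the test only through that group and were picked for their levels, so the values are a description with no test. PTPN22, a phosphatase of lymphocyte receptor signalling, was at 0.05, 0.14 and 0.11 TPM in NC and 2.6, 2.89 and 3.14 TPM with the hairpin (log2 fold change 1.82). MMP10, which lies next to MMP1 on chromosome 11, was at 0.38, 0.19 and 0.21 TPM and 2.55, 2.49 and 1.98 TPM (log2 fold change 1.41). TRPV2, a cation channel, was at 0.33, 0.49 and 0.5 TPM and 2.71, 2.97 and 2.83 TPM (log2 fold change 1.42). LAIR2, a secreted collagen-binding receptor, was at 0.3, 0.49 and 0.58 TPM and 1.39, 2.55 and 2.09 TPM (log2 fold change 1.03). No gene met the rule in the other direction.

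The promoters of changed genes differed in the motifs they hold. RefSeq promoters, 250 bases before to 50 after the start site, were found for 284 of the 363 higher, 241 of the 293 lower and 9347 of all tested genes, and 16 motifs were searched on both strands. CCAAT was in 51.0% of promoters of lower genes, 31.0% of higher genes and 37.1% of all tested genes. The share followed the size of the change: it was 41.8% in genes lower by 1.25 to 1.5-fold, 38.7% in genes lower by less, 36.5% in genes that did not pass and 33.0% in genes higher by 1.25 to 1.5-fold. It was 65.1% over all tested members of the 6 mitotic lists and 70.4% over the sterol lists. Lower genes outside these lists held it in 48.2%. KIF20A, MSMO1 and CHAC1, printed above, are examples. The CHR element TTTGAA, known from mitotic promoters, was in 58.1% of the mitotic list promoters and 9.46% of all tested genes, and in 12.4% of lower and 10.2% of higher genes.

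The AP-1 motif TGANTCA, as in S100A2 and MMP10, went the other way. It was in 10.2% of promoters of higher genes, 3.32% of lower genes and 4.27% of all tested genes, and in 5.0% of genes higher by 1.25 to 1.5-fold. The TATA box TATAAA was in 8.8% of higher, 10.4% of lower and 5.14% of all tested promoters, so genes that changed in either direction held it more often. The ETS motif CCGGAAG was in 12.3% and 12.9% against 20.7%. The ATF4 composite element, searched as TGATGNAAN or TTGCATCA, which can overlap and did so in CHAC1, was in 3.17%, 2.07% and 1.63%. The TEAD motif ACATTCC of CCN2 was in 1.76% of higher, 1.66% of lower and 1.86% of all tested promoters. For higher, lower and all tested genes in turn, the GC box GGGCGG was in 66.9%, 76.8% and 72.0% of promoters, the E-box CACGTG in 8.8%, 9.96% and 10.2%, the CRE TGACGTCA in 1.76%, 4.15% and 3.41%, and the antioxidant response element TGACNNNGC in 15.5%, 14.1% and 15%. In the same order, E2F sites (TTTGGCGC, TTTCCCGC, TTCCCGCC or TTGGCGCC) were in 6.69%, 10.4% and 9.09%, sterol regulatory elements (TCACCCCA or TCACNCCAC) in 1.41%, 2.49% and 1.84%, XBP1 sites (GACGTGG or CCACGTCA) in 4.23%, 2.07% and 4.43%, NRF1 sites (GCATGCGC) in 4.23%, 3.73% and 5.83%, and YY1 sites (AAGATGGCG) in 1.76%, 2.49% and 4.27%. GC content had medians of 66.0%, 66.3% and 65.7%. A match is a run of letters in a fixed window, not a bound site, and these shares were not tested.

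Changed genes lay on all nuclear chromosomes with tested genes. Chromosome 20 had the highest share of higher genes, 17 of 306 (5.56%), among them the neighbours ID1 and BCL2L1. Chromosome 6 had the highest share of lower genes (4.41%), with the neighbouring pairs TUBB2A and TUBB2B, and MICA and MICB. Chromosome 14 had the lowest share of higher genes (0.532%). In all, 27 runs of adjacent tested genes changed in the same direction at 1.5-fold. How many runs a random order would give, with 3.17% of genes higher and 2.56% lower, was not tested. The runs include MMP10 with MMP1, SLC30A1 with NEK2, XBP1 with CCDC117, and PLAU with C10orf55, which overlap, so their reads cannot be told apart without strand.

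The RKO changes were set beside HCT116, where CKAP2L was raised by a construct. If a gene followed the CKAP2L level in both lines, NC minus shCKAP2L in RKO and CKAP2L construct minus vector in HCT116 would have the same sign. Of the 293 genes lower in RKO, 282 were tested in both lines, and 66 of them (23.4%) were higher and 16 (5.67%) lower with CKAP2L in HCT116. Of the 363 higher genes, 322 were tested in both, and 73 (22.7%) were higher and 21 (6.52%) lower. Over all genes tested in both lines, 16.8% were higher and 4.24% lower in HCT116. The median HCT116 log2 fold change was 0.0578 for RKO-lower genes, 0.0675 for RKO-higher genes and 0.055 for all. The difference of the 2 effects passed in 54.5% of 11024 genes, and in 278 and 321 of the lower and higher genes, which were chosen on their effect in RKO. Line, direction of the manipulation and table cannot be told apart in this difference.

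Some genes had opposite signs with opposite manipulations; HCT116 values below are vector to construct means and the log2 fold change. STARD4, which fell with the hairpin in RKO, had the opposite sign in HCT116 (24.5 to 38.5 TPM, 0.63; difference of effects 0.46 ± 0.06, adjusted p = 4.80e-06). ATF3 (72.8 to 104 TPM, 0.51), XBP1 (89.2 to 119 TPM, 0.41), DDIT4 (579.7 to 772 TPM, 0.41) and CHAC1 (114 to 147 TPM, 0.36) also had positive values there. CCN2, the largest fall in RKO, was at 27.9 and 29.9 TPM in HCT116 (difference 1.65 ± 0.08, adjusted p = 8.84e-12). HMOX1, higher with the hairpin in RKO, also had a positive value with the construct in HCT116 (95.2 to 128 TPM, 0.42; difference -1.79 ± 0.04, adjusted p = 2.07e-15). KLF2, at 24.7 to 70.3 TPM in RKO, was at 168.7 and 173 TPM in HCT116 (difference -1.52 ± 0.08, adjusted p = 2.50e-11). For AREG the difference of the effects did not pass (0.25 ± 0.15, adjusted p = 0.161).

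**Figure D5:**
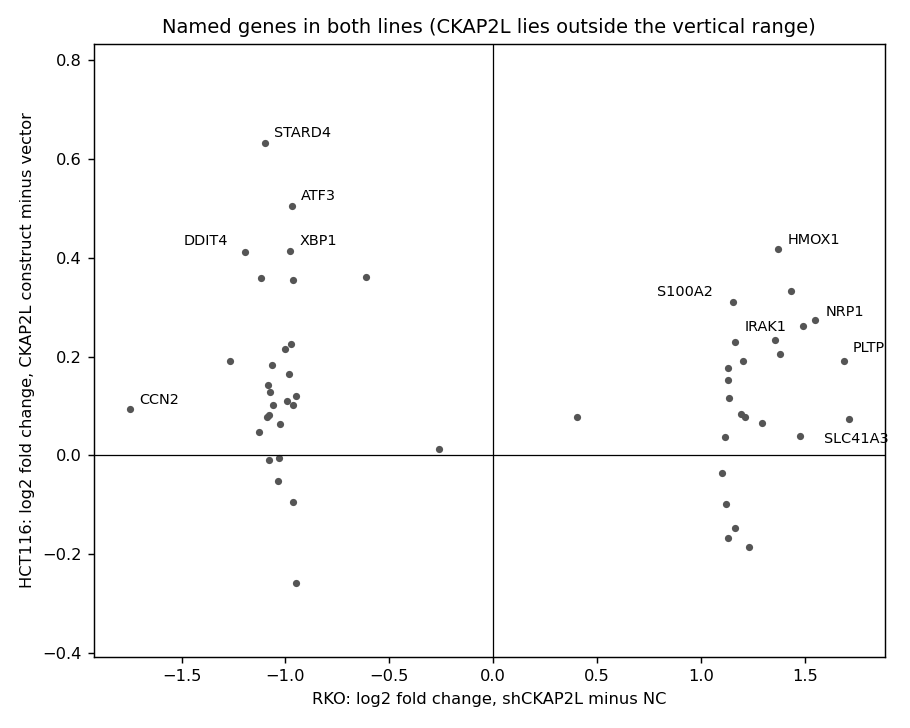
Log2 fold change in RKO (shCKAP2L minus NC, horizontal axis) and in HCT116 (CKAP2L construct minus vector, vertical axis), both on the log2(TPM + 1) scale, for genes of the axis and of the 30 largest changes per direction tested in both lines, 1 point per gene. STARD4 and ATF3 lie at the upper left (lower in RKO, higher in HCT116), HMOX1 at the upper right, and CCN2 at the far left near 0 in HCT116. CKAP2L, at -1.53 and 3.93, lies outside the vertical range.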

How the data were processed

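Per the labels' protocols, Trizol-extracted, DNase-treated RNA went into mRNA libraries. The authors deposited TPM values for 20263 genes in 1 table per line. The tools named in the submitters' processing notes are HISAT2 2.0, bedtools 2.26.0, Trimmomatic 0.36 and FastQC 0.11.2, and the build is GRCh38. No source used here gives the counting tool, annotation or strand setting. TPM keeps no depth, so depth is unknown and there are no counting intervals. Between 14181 and 14573 genes were above 0 per library.

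The 6 RKO libraries were analysed alone as log2(TPM + 1), for genes averaging 1 TPM or more, by limma 3.58.1 under R 4.3.3 (prior variance with a trend, two-sided, Benjamini-Hochberg adjustment over 11442 genes). A change was called at an adjusted p under 0.05, and described at 1.5-fold or more. The difference from HCT116 came from 1 limma model of all 12 libraries. The limma step was tested on simulated data. Symbols came from a name table (20148 genes) and GENCODE release 29 (76), which also gave positions, and 39 genes had none. Sequences are from RefSeq.

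The members and the 65 gene lists were chosen with earlier results of these data known. By rule, the text names CKAP2L, STAT3, AREG and EGFR, and the 30 largest changes per direction at 1.5-fold. These 30 had a mean of at least 5 TPM, groups that did not overlap and a gene symbol. Also named by rule are up to 5 members per list and direction, and genes on in 1 group only. Some genes that meet this rule are not reported here. Other members of a list, SYP, and the groups in the closing section were named after their values were seen. Lists are described by counts and medians, with no set test. The alternatives were other pseudocounts, filters, scalings and priors, a replicate block, limma's treat and leaving out each library. Their effect is given in the closing section.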

Additional observations from a re-analysis of the deposited data

Results flagged for a closer look

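The effect of CKAP2L level was compared between the lines for the genes of the title's axis and for the largest changes per direction in RKO that were tested in both lines. The value given is RKO (NC minus shCKAP2L) minus HCT116 (CKAP2L construct minus vector) on the log2 scale, from the joint limma model. It is a description for genes picked by their change in RKO. A difference that passed was found for CKAP2L (-2.3994), where the construct raised the level far more than the hairpin lowered it. It was also found for STAT3 (-0.4825), which rose with the hairpin in RKO, and for EGFR (0.2455), which fell with it. Of the largest changes, SLC41A3 (-1.7849), PLTP (-1.8785), CCN2 (1.6547) and LONRF1 (1.0739) are given as examples. Such a difference was not particular to them. It passed in 321 of 322 higher and 278 of 282 lower 1.5-fold genes tested in both lines, and in 54.5% of all genes tested in both. AREG, the remaining gene of the axis, did not pass (0.25, adjusted p = 0.161). Line and manipulation cannot be told apart.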

How the results depend on the processing

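Counts at 1.5-fold depended on the pseudocount and on how strictly the size was tested. With a pseudocount of 5 there were 174 higher and 145 lower genes, and with limma's treat, which tests against 1.5-fold itself, 173 and 89. A pseudocount of 0.1 gave 900 changed genes against 656. Filters, scalings and priors gave between 549 and 707. Leaving out each library gave 343 to 394 higher and 273 to 327 lower genes, and from 2709 to 3081 higher and 4392 to 5075 lower genes of any size. CKAP2L in RKO stayed between -1.57 and -1.49 without any 1 library. No gene called at 1.5-fold both in the main fit and in an alternative changed sign. Of the named genes' results, 65 lost the 1.5-fold call under treat. MT-CO1 was 0 under quantile normalization, which gives equal ranks equal values and so cannot show its change. CD68 passed under median-of-ratios rescaling and without mitochondrially encoded mRNAs. Using shCKAP2L replicate 1 alone, an alternative chosen after seeing the data because of the genotype labels, gave 363 higher and 317 lower genes at 1.5-fold, with CKAP2L at -1.59. The lone library is assumed to vary like the NC libraries.

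List medians kept their sign under all alternatives for the mitotic, replication, recombination, sterol, YAP, ATF4, KLF and ribosomal protein lists. The medians of lists near 0, such as the BCL2 family, glycolysis, hypoxia, lysosome and autophagy lists, turned in at least 1 alternative. Library numbers did not pair the samples: deviations of same-numbered libraries correlated at -0.0364, 0.0486 and -0.0432. With the replicate block 3024 genes were higher and 4837 lower, and 363 and 293 at 1.5-fold. Depth is unknown, so the limits at low TPM cannot be given as counts.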

Other observations

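The groups here were chosen after their values were seen, so their counts are descriptions. Ligands of NKG2D, the activating receptor by which natural killer cells recognise stressed cells, were lower with the hairpin. Of 8 genes, 6 were tested, 0 rose and 5 fell, against 26.4% and 42.1% of all tested genes. MICA was at 65.46, 69.03 and 67.88 TPM in NC and 33.43, 32.66 and 34.72 TPM with the hairpin (log2 fold change -0.98 ± 0.03, adjusted p = 2.59e-12), MICB at 66.59, 69 and 68.01 TPM and 33.43, 32.37 and 32.59 TPM (log2 fold change -1.03 ± 0.03, adjusted p = 6.87e-13), and ULBP3 at 43.32, 42.84 and 43.88 TPM and 25.05, 22.51 and 26.46 TPM (log2 fold change -0.79 ± 0.05, adjusted p = 8.60e-10). MICA and MICB are close copies, so shared reads could tie their values. ULBP1 (-0.55) and RAET1G (-0.48) fell too, and ULBP2 did not pass (adjusted p = 0.233). HLA-B and HLA-C, which encode class I molecules, were higher in the same libraries.

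Of 39 HOX genes, 29 were tested, 0 rose and 19 fell, with a median of -0.219. Over all tested genes 26.4% rose and 42.1% fell, with a median of -0.05. HOXA9 was at 110.05, 113.31 and 114.73 TPM in NC and 67.7, 65.97 and 64.27 TPM with the hairpin (log2 fold change -0.76 ± 0.03, adjusted p = 8.52e-12), and HOXC6 fell from 15.3 to 9.89 TPM (-0.59 ± 0.05). The 10 that did not pass include HOXA4, HOXA5 and HOXD9. In glycogen metabolism 8 of 17 tested genes rose and 5 fell. GBE1, the branching enzyme, rose from 17.03 ± 0.690 to 35.9 ± 0.153 TPM (SD, n = 3 each; 1.04 ± 0.04). The synthase GYS1 fell by 0.13 ± 0.03.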
